A study of Mus musculus with 45 samples.

Results

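Here 10 genes of the tight junction were followed: the claudins Cldn2, Cldn3, Cldn4, Cldn7, Cldn15 and Cldn23, occludin (Ocln), the junctional adhesion molecule F11r, and the zonula occludens scaffolds Tjp1 and Tjp3. These members were chosen by name among the 47729 genes in the deposited tables, and all 10 passed the filter on low counts. The cells were small intestinal tuft cells, chemosensory cells of the epithelium that release type 2 cytokines, sorted from single male C57BL/6J mice as EpCAM+CD45+ Siglec-F+ cells and sequenced in bulk. All mice were housed at thermoneutrality and received either a reference diet with 10% fat (RFD) or a high fat diet with 60% fat (HFD), and no allele was altered in any group. The first set held 11 RFD and 11 HFD libraries after 9 weeks of feeding, and the second set held 11 RFD and 12 HFD libraries after 22 weeks by the study's methods. The sample labels give 9 weeks for the second set too, so feeding time and set cannot be told apart. In bulk RNA, fewer cells of a type and less RNA per cell cannot be told apart either.

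Tight junctions seal the space between neighbouring epithelial cells near their apical side. Claudins polymerise into the strands that decide which ions and water pass between cells: Cldn2 and Cldn15 form pores for small cations, whereas Cldn3 is a sealing claudin. Occludin and F11r, also named JAM-A, are further membrane proteins of the junction, and the Tjp proteins (ZO-1 and ZO-3) tie claudin tails to the actin cytoskeleton. In the intestine Cldn2 is best known from the crypt, and Cldn15 lets sodium return to the lumen, where nutrient transporters use it.

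The stretch of a claudin that meets a ZO scaffold is its last residues, and the ends of the coding sequences are shown because they are where the claudins among the members and the Tjp members touch. Each line gives the last 30 coding bases before the stop codon on the coding strand, taken from the GENCODE M21 transcripts on GRCm38. The capitals mark the last 6 bases, which are the last pair of codons.
Cldn2: ttcaactcatacagcctgactgggTATGTG
Cldn3: ggcaccgcctacgaccgcaaggacTACGTC
Cldn4: gcccgctctgtccccgccagcaacTATGTG
Cldn7: cccaagtccaattcctccaaggaaTACGTG
Cldn15: ttcggtaaatatggcaaaaacgcaTACGTG
Cldn23: caaaattcgctgccctgtgactccGACCTG
In Cldn2, Cldn3, Cldn4, Cldn7 and Cldn15 the capitals encode tyrosine and valine, the usual claudin ending that PDZ domains of ZO proteins bind. Cldn23 is the exception and ends in aspartate and leucine codons. Its coding sequence was also the longest of these claudins, with 888 bases before the stop codon against 630 to 690 in the other claudins. The shown bases lie at chrX:139809368-139809397 (+) for Cldn2, chr5:134987072-134987101 (+) for Cldn3, chr5:134946116-134946145 (-) for Cldn4, chr11:69967685-69967714 (+) for Cldn7, chr5:136974884-136974913 (+) for Cldn15 and chr8:35825445-35825474 (-) for Cldn23, all in coding exons. Of the 45 pairs of members, none shared a stretch of 50 bases in their transcripts, so matches of that length could be told apart between members. Likeness of sequence to genes outside the members was not checked. Cldn3 shared 40 of its 1259 exon bases with the antisense gene Wbscr25, and Tjp3 shared 40 of its 3714 with Apba3 on the opposite strand. Smart-seq2 libraries do not mark strand, so strand could not separate reads within those 40 bases. Over all libraries Wbscr25 was given 276 reads against 79755 for Cldn3, and Apba3 5948 against 15185 for Tjp3.

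Levels between genes are given in TPM, in which reads are divided by transcript length and every library is scaled to the same total. A pair of claudins dominated. Over the 45 libraries the median level of Cldn3 was 798.62 TPM (range 95.22 to 1395.49) and that of Cldn7 was 649.5 TPM (122.44 to 1147.71), which placed them above 99.2% and 98.9% of the genes tested. Cldn3 exceeded Cldn7 in 25 of 45 libraries, so these neighbours in the order did not separate, and their order was turned round in both HFD groups. F11r followed at a median of 147.15 TPM and was below Cldn7 in all 45 libraries. Cldn15 had a median of 87.13 TPM, Tjp3 of 47.73 TPM and Ocln of 20.78 TPM, and each exceeded the next gene in the order in 36 to 39 libraries, whereas F11r exceeded Cldn15 in 29.

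The lower end of the order was less settled. Cldn23, Cldn4 and Cldn2 had median levels of 11.8, 10.48 and 10.03 TPM. Cldn23 exceeded Cldn4 in 24 libraries and Cldn4 exceeded Cldn2 in 22 of 45, so these 3 genes could not be ranked. Tjp1, which encodes ZO-1, was lowest at a median of 1.74 TPM (range 0 to 11.19) and exceeded only 34.1% of the genes tested. Per length, ZO-3 was thus the more abundant transcript of the ZO scaffolds followed here. The median count of Tjp1 was 21 reads per library, against 280 for Tjp3, so its values carry a wide counting error.

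**Figure D1:**
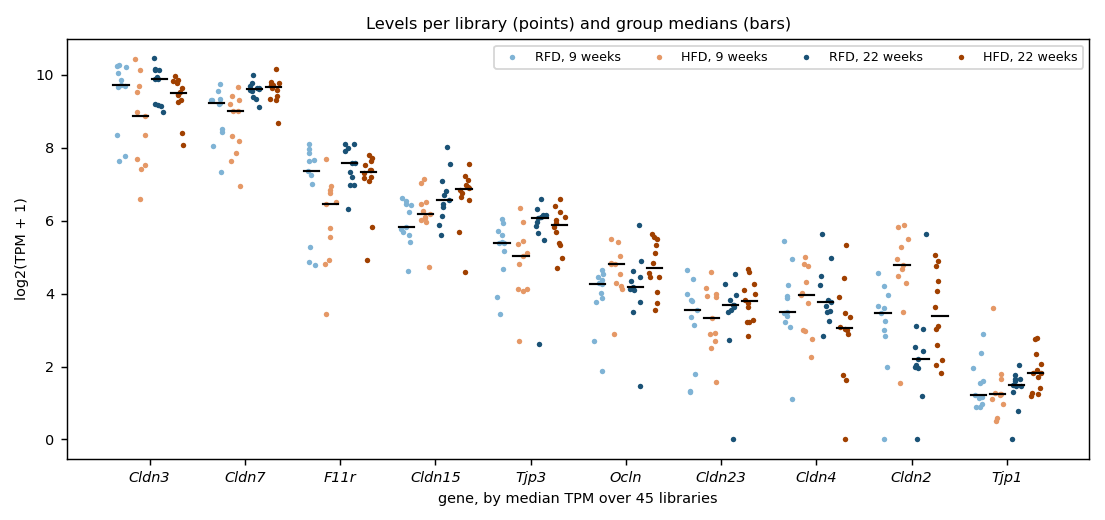
Level of each gene as log2(TPM + 1) in every library, with 4 columns of points per gene for RFD and HFD at 9 and 22 weeks and a bar at each group median. Cldn3 and Cldn7 stand on top in all 4 groups, with F11r below them and Tjp1 at the bottom. On this TPM scale the HFD columns at 9 weeks reach lowest for Cldn3, Cldn7 and F11r, each in the library of mouse 80. In CPM that library lies within the RFD range for these genes.

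Summed over the 6 claudins, the median level was 1683 TPM on RFD (range 431 to 2031) and 1123 TPM on HFD (262 to 2291) at 9 weeks. At 22 weeks it was 1867 TPM on RFD (1322 to 2274) and 1709 TPM on HFD (881 to 2253). Ranges of the diets overlapped at both times. Every library is scaled to the same TPM total, so a TPM level also depends on the other genes of that library. In the HFD library of mouse 80 at 9 weeks, Cldn7 was the lowest of its group at 122.44 TPM. On the CPM scale used below it was at 725 CPM, within a group range of 371 to 885. How far this scaling moved the sums was not tested. Within this sum Cldn3 supplied a median of 54.6% on RFD and 44.0% on HFD at 9 weeks, and 49.1% and 44.1% at 22 weeks. The share of Cldn2 was 0.800% on RFD and 3.54% on HFD at 9 weeks, and 0.180% and 0.518% at 22 weeks. Cldn15 supplied 4.46% and 8.57% at 9 weeks, and 4.94% and 6.93% at 22 weeks. For Cldn7 the share was 37.5% on RFD and 42.5% on HFD after 9 weeks of feeding and 42.7% and 46.8% after 22 weeks. That of Cldn23 was 0.680% and 1.01% in the first set and 0.536% and 0.791% in the second. Only Cldn4 had a median share that was higher on HFD at 9 weeks (0.996% and 1.145%) and lower at 22 weeks (0.661% and 0.526%). The median share of Cldn3 was thus lower on HFD at both times, and those of Cldn2, Cldn7, Cldn15 and Cldn23 were higher. These shares are a description and were not tested. Shares of the same sum are tied, so a lower share of Cldn3 goes with higher shares elsewhere. At 9 weeks the median level was lower on HFD for Cldn7 (601.8 and 509.91 TPM) and Cldn23 (10.81 and 9.15 TPM), although their shares were higher. For Cldn2, Cldn4 and Cldn15 the median TPM at 9 weeks was higher on HFD, as were their shares. In CPM this held for Cldn2 and Cldn15, whereas the Cldn4 median was lower on HFD (31.1 on RFD and 26.1 on HFD).

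Depth and purity differed between libraries. The sum of reads over genes lay between 189340 and 4690213, and it was under 500000 in 2 libraries. Tuft markers were present: all 28 of a tuft marker list were measured and their summed level ranged from 75.11 to 25760 TPM. Markers of other cells were present too, and Paneth markers summed to a median of 10191 TPM on RFD and 75438 TPM on HFD at 9 weeks (highest 236399 and 398405), and to 3577 and 39036 TPM at 22 weeks. T cell markers never summed to more than 124.34 TPM. At 9 weeks enterocyte markers (15 genes) summed to medians of 23835 TPM on RFD and 18208 TPM on HFD. At 22 weeks their medians were 37894 and 39908 TPM. Tuft medians were lower in every group, at 13900 and 6183 TPM, then 18796.5 and 14782 TPM. Goblet medians were 3751.5 and 6371 TPM, then 2588 and 5067 TPM. Levels are therefore those of the libraries and not of tuft cells alone. The difference between the mean log2 CPM of the 28 tuft markers and the mean over 6 lists of other cell types served as a measure of purity. It lay between -0.21 and 4.77 on RFD (median 3.40) and between -3.63 and 5.61 on HFD (median 1.05) at 9 weeks, and its medians were 3.27 and 3.30 at 22 weeks. In 8 libraries the tuft mean was below the others: 5 of the 11 HFD and 1 of the 11 RFD libraries at 9 weeks, and 1 in each group at 22 weeks. Differences are therefore also given without those 8 libraries and with the purity measure as a covariate. A fit within a set left out only those of its own set, which kept 16 libraries at 9 weeks and 21 at 22 weeks. Similar medians at 22 weeks do not mean that the marker lists were alike on both diets. Tuft markers then had a median log2 fold change of HFD over RFD of -0.41 (26 of 28 below 0). Among the 6 other lists, enteroendocrine markers had -3.02 (10 of 10 below 0), T cell markers -1.51 and enterocyte markers -0.06. Goblet, Paneth and stem and cycling markers had 0.77, 1.33 and 0.65. How far each list moved the measure was not tested.

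To ask how HFD affected the members, diets were compared within each set by the quasi-likelihood test of edgeR, adjusted by Benjamini-Hochberg over the 14020 genes tested, at a threshold of 0.1. Of the 10 members, 0 passed at 9 weeks, where 3.32% of all genes tested did, 2% higher and 1.33% lower on HFD. At 22 weeks 0 of 10 passed as well, against 0.792% of all genes, 0.435% higher and 0.357% lower. At an unadjusted p under 0.05 there were 3 of 10 at 9 weeks (F11r, Cldn2 and Ocln), where 18% of all genes reached it, and 1 of 10 at 22 weeks (Cldn3), where 10.3% did. With DESeq2, 2 members passed at 9 weeks (Cldn2 and F11r), where 8.7% of all genes passed, and 0 at 22 weeks, where 2.09% did. Without the filter on low counts F11r and Ocln passed at 9 weeks, where 4.19% of all genes did, and with enterocyte markers as a covariate Cldn3, F11r and Ocln passed, where 11.5% did. In limma on log2(TPM + 1) 0 members passed at either time, and of all genes 0.0642% did at 9 weeks and 0.364% at 22 weeks. With a pseudocount of 0.1 it was 0 members as well, against 0.0357% and 0.221% of all genes. Differences are log2 fold changes of HFD over RFD with their standard error (SE), and levels of a gene across libraries are in CPM, its reads on a common library scale after TMM normalization, with no division by length.

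**Figure D2:**
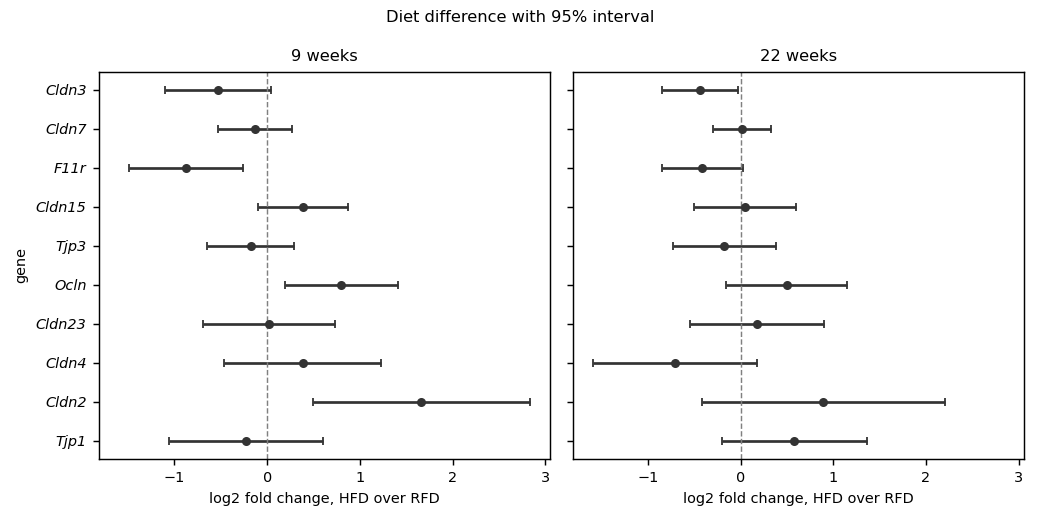
Log2 fold change of HFD over RFD for each gene at 9 weeks (left, 11 against 11 libraries) and 22 weeks (right, 11 against 12), with bars for the 95% interval derived from the edgeR test. At 9 weeks the intervals of F11r, Ocln and Cldn2 lie on one side of 0, and at 22 weeks that of Cldn3 does, but no adjusted p is under 0.1.

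Among the membrane partners of the claudins, F11r had the smallest p. JAM-A, its product, is an immunoglobulin-like adhesion molecule that takes part in junction assembly and polarity. At 9 weeks its level in RFD libraries was 109 to 766 CPM (median 462), and in HFD libraries 127 to 543 CPM (median 219). Although 10 of 11 HFD libraries lay below the RFD median, every one was within the RFD range. The difference was -0.87 (SE 0.30, 95% interval -1.49 to -0.26, p = 0.00694 and adjusted p = 0.129 by edgeR). The 3 series of mouse numbers may mark repeated experiments, or cages and days of harvest. Within them the difference was -1.44, 0.20 and -0.64, so the direction did not hold in the series of multiples of 10. RFD libraries of that series held 150, 166 and 109 CPM, the lowest of the RFD group. Their purity was also the lowest of that group, at 0.24, -0.21 and 0.96, and mouse 40 had 189340 reads in all. HFD libraries of the series had a purity of -0.57, 1.05, -0.55 and -3.63. At 22 weeks RFD libraries held 187 to 644 CPM (median 480) and HFD libraries 116 to 550 CPM (median 362), with 11 of 12 HFD libraries below the RFD median. That difference was -0.41 (SE 0.22, 95% interval -0.85 to 0.03, adjusted p = 0.517 by edgeR), with values of -0.39, -0.29 and -0.44 within series.

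F11r moved closely with tuft purity. Over the 45 libraries, with group means removed, its log2 CPM had a Spearman's rho of 0.81 and a Pearson's r of 0.83 with the purity measure, and r was 0.81 without the 2 libraries of most extreme purity. Of the genes tested, 99.3% had a lower rho. Within the 4 groups rho ranged from 0.73 to 0.85. With the purity measure as a covariate, the difference at 9 weeks was -0.37, and without the 8 libraries of low purity it was -0.59 (unadjusted p = 0.0897 by edgeR). F11r passed the threshold in neither fit, but of all genes only 0.143% did in the first and 0% in the second. Not passing in these fits therefore says little about F11r. At 22 weeks the difference was -0.28 with the covariate and -0.42 without the low purity libraries (unadjusted p = 0.0222 by edgeR). Both were short of the threshold, which 1.53% and 2.45% of all genes passed in these fits. The part of purity in the F11r difference was not tested beyond these fits. The genes most like F11r across libraries were Cdhr5, a microvillar protocadherin, Abhd2 and Tmem98, at rho of 0.95, 0.94 and 0.93.

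Occludin, a MARVEL protein of the junction's strands, had an estimate of the opposite sign. At 9 weeks RFD libraries held 12.8 to 93.6 CPM of Ocln (median 66.1) and HFD libraries 35.5 to 169 CPM (median 84.5). Of the HFD libraries 5 of 11 exceeded every RFD library, and the others lay within the RFD range. The difference was 0.80 (SE 0.30, 95% interval 0.19 to 1.41, p = 0.0119 and adjusted p = 0.158 by edgeR), with 0.82, 0.75 and 0.65 within series. At 22 weeks the values were 6.14 to 161 CPM on RFD (median 48.4), with the highest in mouse 1, and 31.5 to 129 CPM on HFD (median 80.3), and 10 of 12 HFD libraries lay above the RFD median. The difference of 0.49 (SE 0.32, 95% interval -0.15 to 1.14, adjusted p = 0.626 by edgeR) did not pass the threshold.

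Ocln was higher where purity was lower, at a rho of -0.70 (r = -0.59, and -0.64 without the 2 most extreme libraries) and between -0.62 and -0.76 within groups. Of the genes tested, 1.21% had a lower rho. Without the 8 libraries the difference at 9 weeks was 0.34, and with the purity covariate it was 0.29. At 22 weeks it was 0.70 without those libraries (unadjusted p = 0.0234 and adjusted p = 0.252 by edgeR) and 0.41 with the purity covariate. Of all genes, 14.9% reached an unadjusted p under 0.05 in the fit without those libraries. Its nearest genes across libraries were Etfa, a mitochondrial electron transfer flavoprotein, Rnaseh2a, a subunit of the RNase that removes RNA from DNA, and Immt, of the mitochondrial inner membrane, at rho of 0.82, 0.80 and 0.80.

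**Figure D3:**
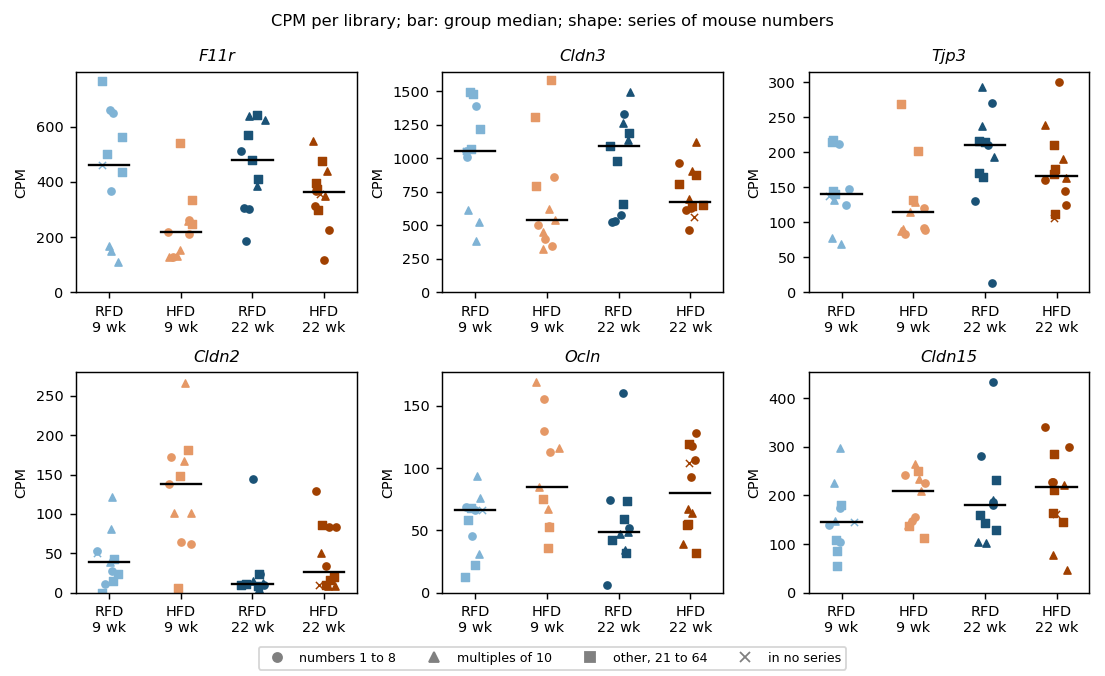
CPM per library of F11r, Cldn3, Tjp3, Cldn2, Ocln and Cldn15 on RFD and HFD at 9 and 22 weeks, with a bar at the group median and the point shape giving the series of mouse numbers. HFD medians lie below RFD medians for F11r, Cldn3 and Tjp3 and above them for Cldn2, Ocln and Cldn15 at both times, with overlapping ranges in every panel.

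Cldn2, the cation and water pore, had the largest estimate among the members. At 9 weeks RFD libraries held 0 to 122 CPM (median 38.9) and HFD libraries 6.27 to 267 CPM (median 138). All but 1 of the HFD libraries were above the RFD median and 6 of 11 exceeded every RFD library. The difference was 1.66, a 3.16-fold higher level (SE 0.57, 95% interval 0.49 to 2.83, p = 0.00744 and adjusted p = 0.132 by edgeR), and it was 1.93, 1.00 and 2.34 within series. At 22 weeks the RFD values were 0 to 144 CPM (median 10.96) and the HFD values 8.64 to 129 CPM (median 26.3). In that RFD group, 1 library (mouse 1) held the highest value of the set and the others stayed at or below 23.8 CPM. It was 1 of the 8 libraries of low purity. The difference was 0.89 (SE 0.64, 95% interval -0.42 to 2.20, adjusted p = 0.677 by edgeR), and it was 1.67 without the low purity libraries (unadjusted p = 0.00261, adjusted p = 0.104 by edgeR).

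Across libraries Cldn2 went against tuft purity, at a rho of -0.65 (r = -0.67, and -0.68 without the 2 most extreme libraries), with 2.42% of the genes tested lower. Within groups rho ranged from -0.75 to -0.46. At 9 weeks the difference was 1.02 with the purity covariate. Without the 8 libraries it was 1.52 (unadjusted p = 0.0381 and adjusted p = 0.624 by edgeR), in a fit where 0% of all genes passed. At 22 weeks the difference was 1.02 with the covariate. The genes nearest to Cldn2 were AI506816, Rrm1, a subunit of ribonucleotide reductase, and Mcm5, a subunit of the replicative helicase, at rho of 0.84, 0.83 and 0.83. Stem and cycling markers mark the crypt base and dividing cells. At 9 weeks they summed to a median of 189 TPM on RFD (range 105 to 662) and 674 TPM on HFD (56.5 to 1077). At 22 weeks the medians were 52.0 TPM on RFD (17.3 to 1232) and 141 TPM on HFD (33.3 to 728). Ranges overlapped at both times, and the part of these cells in the Cldn2 difference was not tested. Cldn2 was without a read in 2 RFD libraries, 1 in each set, and a count of 0 there, taken to allow 3 counts, leaves room for up to 0.871 and 3.23 CPM before TMM scaling, for counting error only.

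Cldn15, the other pore-forming claudin, did not pass at either time. At 9 weeks RFD libraries held 55.7 to 298 CPM (median 144) and HFD libraries 113 to 264 CPM (median 209), so the HFD libraries all lay within the RFD range. The difference was 0.39 (SE 0.24, 95% interval -0.10 to 0.87, adjusted p = 0.409 by edgeR). At 22 weeks the medians were 181 CPM on RFD (range 102 to 434) and 216 CPM on HFD (45.9 to 341), and the difference was 0.05 (95% interval -0.50 to 0.60). With the purity covariate the difference at 9 weeks was 0.06, and without the 8 libraries it was 0.21. At 22 weeks it was -0.09 with the covariate, 0.13 without those libraries and -0.01 in limma on TPM. Cldn15 had a rho of -0.56 with purity, held at -0.64 to -0.75 in 3 groups and at 0.06 on RFD at 22 weeks.

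The sealing claudin Cldn3 had negative estimates at both times. At 9 weeks RFD libraries held 381 to 1495 CPM (median 1058) and HFD libraries 322 to 1582 CPM (median 539), where 9 of 11 HFD libraries were below the RFD median and 1 was above every RFD library. The difference was -0.53 (SE 0.28, 95% interval -1.10 to 0.04, adjusted p = 0.320 by edgeR), with -1.21 in the series of numbers 1 to 8 and -0.09 and -0.14 in the others. At 22 weeks the RFD values were 524 to 1498 CPM (median 1095) and the HFD values 462 to 1125 CPM (median 675), with 11 of 12 HFD libraries below the RFD median. That difference was -0.44 (SE 0.20, 95% interval -0.85 to -0.02, p = 0.0385 and adjusted p = 0.460 by edgeR). Cldn3 had a rho of 0.76 with purity (r = 0.75), higher than in 98.3% of the genes tested. Within groups rho was 0.77 to 0.95 in 3 of them and 0.25 on RFD at 22 weeks. Its difference at 9 weeks was -0.12 with the purity covariate and -0.18 without the 8 libraries, whereas at 22 weeks it was -0.35 and -0.45.

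Cldn7, which also sits along the basolateral membrane and binds EpCAM, had the smallest standard error of the members at both times. RFD libraries held 280 to 991 CPM (median 686) and HFD libraries 371 to 885 CPM (median 567) at 9 weeks. The values at 22 weeks were 461 to 1034 CPM on RFD (median 832) and 632 to 1167 CPM on HFD (median 786), so the diets overlapped at both times. The differences were -0.13 (SE 0.20, 95% interval -0.53 to 0.27) and 0.02 (SE 0.15, 95% interval -0.30 to 0.33), with adjusted p of 0.785 and 0.983 by edgeR. The sign at 22 weeks turned in 4 alternatives, to between -0.0547 and -0.00319. At 9 weeks the difference was -0.04 with the purity covariate and -0.07 without the 8 libraries.

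Cldn4 had estimates of opposite sign at the 2 times. It is a claudin that lowers the passage of cations in many epithelia. At 9 weeks RFD libraries held 2.23 to 75.3 CPM (median 31.1) and HFD libraries 9.64 to 95.2 CPM (median 26.1), with overlapping ranges and a difference of 0.38 (SE 0.41, adjusted p = 0.671 by edgeR). The series gave -0.56, -0.02 and 1.50, so only the series of other numbers gave a positive value. The estimate was 0.17 with the purity covariate and 0.04 without the 8 libraries. At 22 weeks the RFD values were 9.96 to 81.0 CPM (median 21.2) and the HFD values 0 to 54.4 CPM (median 15.5), where 4 of 12 HFD libraries were below every RFD library. The difference there was -0.71 (SE 0.43, 95% interval -1.59 to 0.17, adjusted p = 0.603 by edgeR), and it was -0.56 with the covariate and -0.81 without the low purity libraries. The difference between the 2 diet effects was -1.04 (SE 0.62, unadjusted p = 0.0978), the smallest p among the members in the interaction test, with an adjusted p of 1.00 by edgeR. It was -0.70 with the covariate and -0.83 without the 8 libraries. For all 10 members the interaction had an adjusted p of 1.00 and 0 reached an unadjusted p under 0.05. Of all genes 0% passed it in edgeR and in DESeq2, and 3.22% reached an unadjusted p under 0.05 in edgeR.

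Cldn23, the claudin with the other ending, was at 3.04 to 45.8 CPM in RFD libraries (median 25.6) and at 12.02 to 43.8 CPM in HFD libraries (median 21.7) at 9 weeks. The values at 22 weeks were 0 to 38.0 CPM on RFD (median 21.02) and 9.33 to 37.3 CPM on HFD (median 24.8). Diets overlapped at both times, with differences of 0.02 (SE 0.35, 95% interval -0.69 to 0.73) and 0.17 (SE 0.35) and adjusted p of 0.987 and 0.916 by edgeR. Without the 8 libraries they were 0.16 and 0.18, and with the purity covariate 0.25 and 0.16. Such an interval is too wide to tell a small difference from none. Median counts were 28 to 48 reads per group, and the part of counting error in the width of the interval was not tested.

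The scaffolds did not pass either. Tjp3 was at 68.2 to 218 CPM in RFD libraries (median 140) and at 83.4 to 269 CPM in HFD libraries (median 114) at 9 weeks. At 22 weeks it was at 13.2 to 292 CPM on RFD (median 210) and at 105 to 300.03 CPM on HFD (median 166). Medians were lower on HFD at both times, and the differences were -0.18 (SE 0.23) and -0.18 (SE 0.27), with adjusted p of 0.741 and 0.876 by edgeR. Tjp3 had a rho of 0.54 with purity (r = 0.32), at 0.52 to 0.79 in 3 groups and 0.05 on RFD at 22 weeks. Its difference at 9 weeks turned to 0.11 with the purity covariate and to 0.08 without the 8 libraries, and at 22 weeks it was -0.16 and -0.14. Tjp1 was at 1.36 to 33.7 CPM in RFD libraries (median 15.9) and at 3.86 to 18.1 CPM in HFD libraries (median 12.4) at 9 weeks. The values at 22 weeks were 0 to 23.4 CPM on RFD (median 13.2) and 8.95 to 34.5 CPM on HFD (median 16.5), with 3 of 12 HFD libraries above every RFD library. The differences of -0.23 (SE 0.41) and 0.58 (SE 0.38, 95% interval -0.20 to 1.36) had adjusted p of 0.822 and 0.642 by edgeR. They were -0.28 and 0.58 without the 8 libraries and -0.27 and 0.55 with the covariate.

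One RFD library at 22 weeks, that of mouse 3, stood apart for these genes although its total was 927740 reads. It held 0 reads of Cldn2, Cldn23 and Tjp1, 7 of Ocln and 15 of Tjp3, where the other RFD libraries of that set had 117 to 906 reads of Tjp3. Its purity was 3.797, above the group's median of 3.27. Its mean log2 CPM of enterocyte markers was 10.606, the highest of the 45 libraries, so a high purity value did not mean few enterocyte reads.

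**Figure D4:**
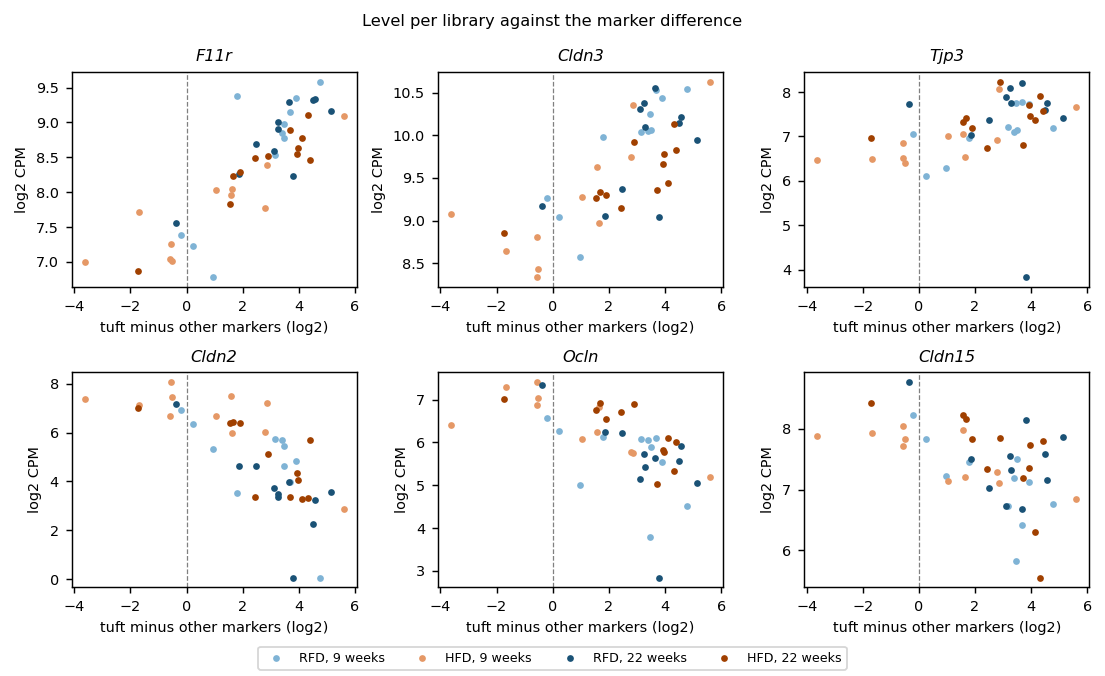
Log2 CPM of 6 members in each of the 45 libraries (vertical axis) against the mean log2 CPM of tuft markers minus that of other cell types (horizontal axis), coloured by diet and time, with a dashed line at 0. F11r and Cldn3 climb with tuft purity, Cldn2, Ocln and Cldn15 descend, and the 8 libraries left of the line include 5 HFD libraries at 9 weeks.

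The members were not one block across libraries. Of the 45 pairs of members, 25 had a rho above 0 after group means were removed, with a median of 0.03 over the pairs. One group was formed by Cldn3 and Tjp3 (rho 0.84), Cldn3 and F11r (0.78) and F11r and Tjp3 (0.58), and Cldn7 went with Cldn3 at 0.60. Another was formed by Cldn2 and Ocln (0.62), Cldn15 and Cldn2 (0.51) and Cldn15 and Ocln (0.51). Between the groups rho was negative, lowest for Cldn2 and F11r at -0.66. Cldn4 and Tjp1 had rho of 0.23 or lower with every other member, and Cldn23 reached 0.42 with Tjp3 and 0.31 with Cldn3. The rho of Cldn4, Cldn23 and Tjp1 with purity were 0.01, 0.21 and -0.22. Libraries share depth, composition and handling, so these values describe the libraries and not regulation within a cell. Over all genes tested, the median rho with purity was -0.05.

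**Figure D5:**
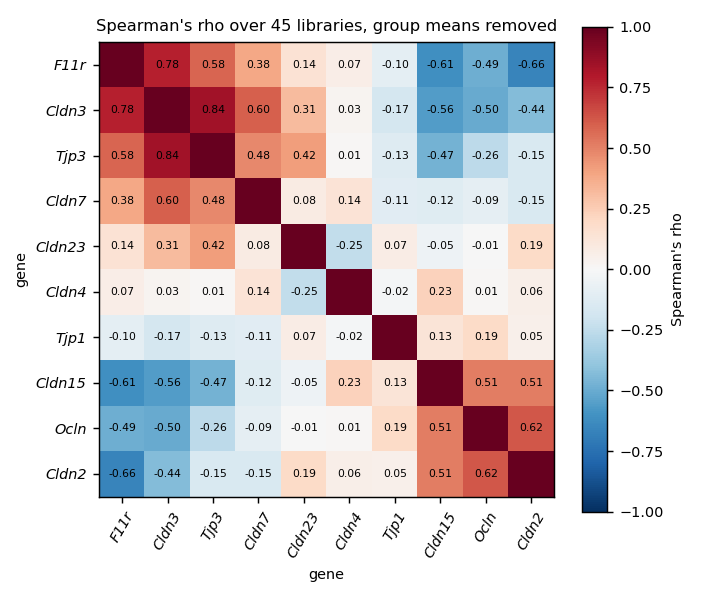
Spearman's rho between the log2 CPM of each pair of the 10 genes over 45 libraries after group means were subtracted, from blue at -1 to red at 1, with the value in each cell. The upper left block (F11r, Cldn3, Tjp3 and Cldn7) and the lower right block (Cldn15, Ocln and Cldn2) are positive and are negative or near 0 with each other.

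The wider junction was described by a list of 67 further genes, of which 43 passed the filter on low counts. Only 4 of the 24 other claudins on it did (Cldn8, Cldn12, Cldn14 and Cldn18). Of the 43, 0 passed the threshold at 9 weeks and 0 at 22 weeks, with 7 and 6 at an unadjusted p under 0.05, which 18% and 10.3% of all genes reached. With DESeq2, 6 and 2 passed, as did 8.7% and 2.09% of all genes. Their median difference was -0.25 at 9 weeks, with 30 of 43 below 0, and -0.13 at 22 weeks, with 25 of 43 below 0. Over all genes tested the medians were -0.05 and -0.03, with 52.7% and 52.1% below 0. The tuft markers themselves had a median of -0.95 at 9 weeks, with 27 of 28 below 0, and -0.41 at 22 weeks, with 26 of 28 below 0. The part of purity in the list's median was not tested.

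By role, the MARVEL and angulin proteins, several of which seal the corners where 3 cells meet, had a median of -0.54 at 9 weeks and -0.24 at 22 weeks over 4 genes. Scaffolds and adaptors had medians of -0.33 and -0.16 over 11 genes, and polarity proteins -0.20 and -0.24 over 10. For the signalling and trafficking genes the medians were -0.58 and 0.14 over 10 genes. Immunoglobulin-like adhesion molecules had medians of 0.47 and 0.09 over 4 genes, and the other claudins -0.17 and 0.19 over 4. No list gene passed, so the following were picked after their values were seen, as those closest to the threshold at 9 weeks. Wnk1, a kinase that regulates ion transport, had a difference of -0.83 (SE 0.26), Cgn, encoding the scaffold cingulin, one of -0.69 (SE 0.22), and Marveld3, a relative of occludin, one of -0.95 (SE 0.30). Their adjusted p were 0.104, 0.106 and 0.106 by edgeR. Cxadr, a JAM-like adhesion molecule and virus receptor, had a difference of 1.03 (SE 0.34, adjusted p = 0.118 by edgeR), opposite in sign to that of F11r. At 22 weeks the smallest adjusted p was 0.160, for the polarity kinase Prkcz at -0.80 (SE 0.24).

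Adherens junctions and desmosomes lie below the tight junction and couple cells mechanically. Of 21 listed genes 20 were tested, and 0 passed at either time, with 3 and 2 at an unadjusted p under 0.05 in edgeR, which 18% and 10.3% of all genes reached. In DESeq2 1 passed (Afdn at 22 weeks, where 2.09% of all genes did). Their median differences were -0.14 at 9 weeks and 0.06 at 22 weeks, and the single lowest adjusted p values were 0.175 and 0.186 by edgeR.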

How the data were processed

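Per the labels and the study's methods, RNA of sorted tuft cells was amplified by Smart-seq2, tagged with Nextera XT and sequenced in pairs. The authors trimmed adapters with cutadapt 1.15, aligned with STAR 2.6.0 to GRCm38 and quantified with RSEM. The deposited expected counts (estimated counts per gene, 8.79% of those above 0 not whole) were rounded, and the deposited TPM values were used for levels between genes. Deposited FPKM tables were not used, nor were the 24 columns that match no sample. Of 47729 identifiers, 47224 had a symbol in GENCODE M21, and 19 genes were removed for a shared symbol.

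Testing covered the 14020 genes that exceeded 5 reads in 6 or more libraries. The test was that of edgeR 4.0.16 in R 4.3.3 (TMM, robust quasi-likelihood fit with Benjamini-Hochberg adjustment) per set, with an interaction fit over all libraries. The design did not name the robust option, and the fit without it is an alternative. Log2 CPM used a prior count of 2. DESeq2 1.42.0 and limma 3.58.1 on log2(TPM + 1) or log2(TPM + 0.1), another scaling, no filter, the number series as a term, marker covariates (purity, the tuft marker mean log2 CPM minus that of other cell types, or enterocyte markers) and left-out libraries were alternatives. The 3 number series were the mouse numbers 1 to 8, the multiples of 10, and the others from 21 to 64. The 2 libraries whose numbers were in none were dropped from the fit with the series as a term.

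All members are named. Genes of the other lists were to be named where they passed the threshold, and the nearest genes are given for the 3 members with the smallest p, by Spearman's rho over 45 libraries with group means removed. Members and lists were chosen with earlier results of these data known. The authors' weighting of counts by cell type and their test were not repeated. Each library is 1 mouse. The study kept several mice of a group in each cage, and the labels do not name the cages. The tests thus treated mice that shared a cage as independent, and p and SE do not allow for cages. The labels give the sort as CD45+, whereas the study's text uses CD45 to exclude cells. Counting intervals cover counting error only.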

Additional observations from a re-analysis of the deposited data

How the results depend on the processing

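No paired analysis was possible because the diet groups compared share no mouse number. Of 231 comparisons of 21 results with 11 alternatives, 211 kept direction and side of the threshold, 13 changed sign and 7 passed the threshold only under the alternative; 2 alternatives (the fit without the robust option and the one without the 8 low purity libraries) were chosen after seeing the data. Of the 211, the 10 members at 22 weeks without libraries under 500000 reads are the reported fit itself, since no library of that set was under it. At 9 weeks 2 members passed with DESeq2 (8.7% of all genes did), 2 without the filter on low counts (4.19%) and 3 with the enterocyte marker covariate (11.5%), against 0 in the fit reported. Of the junction list at 9 weeks, 2 genes passed with DESeq2 size factors in edgeR (3.42% of all genes), 6 with DESeq2, 2 without the filter, 4 with the enterocyte covariate and 1 without libraries under 500000 reads (2.07%). At 22 weeks 2 passed with DESeq2 (2.09%), 1 without the filter (1.2%), 1 with the purity covariate (1.53%) and 2 without the low purity libraries (2.45%). Of the adherens and desmosome list over both times, 1 passed with DESeq2 and 1 with the number series (1.32%), both at 22 weeks, 2 with the enterocyte covariate at 9 weeks and 2 without the low purity libraries at 22 weeks. Signs changed for Cldn23 at 9 weeks (-0.000228 with DESeq2, -0.0240 without libraries under 500000 reads), Tjp3 at 9 weeks (0.111 with the purity covariate, 0.0774 without the low purity libraries), Cldn7 at 22 weeks (-0.00819 and -0.00824 in limma with pseudocounts of 1 and 0.1, -0.00319 with the purity covariate, -0.0547 without the low purity libraries), Cldn15 at 22 weeks (-0.00802 and -0.00936 in limma, -0.0943 with the purity covariate) and Tjp3 at 22 weeks (0.0422 and 0.0556 in limma). The cause was not tested.

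Calls over all genes moved more. At 9 weeks 466 passed, against 1220 with DESeq2, 1505 without the filter, 9 and 5 in limma, 20 with the purity covariate, 1606 with the enterocyte covariate, 290 without libraries under 500000 reads and 0 in edgeR without the 8 low purity libraries (1067 at an unadjusted p under 0.05). At 22 weeks 111 passed, against 293 with DESeq2, 430 without the filter, 51 and 31 in limma, 185 with the number series, 215 with the purity covariate and 343 without the low purity libraries. In the interaction fit 0 passed with edgeR and with DESeq2 (451 and 569 at an unadjusted p under 0.05), against 65 without the filter, 2 with the enterocyte covariate and 1 without the robust option. Standard errors limit what could be seen, and among the members they were largest for Cldn2 at both times (0.57 and 0.64).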
